A study of Rattus norvegicus with 8 samples.

Results

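The comparison described here set the liver of rats given AICAR alone against that of rats given vehicle. Its members were the 2 AICAR arrays and the 2 vehicle arrays, 4 of the 8 arrays of the series, chosen by the treatment in the labels, and every probe set that was not an array control was followed. All animals were male Sprague-Dawley rats of 180 to 200 g. The AICAR rats received 0.7 g/kg into the peritoneum with saline into muscle, and the vehicle rats received saline by both routes. Livers were taken 8 h after the injection. The other 4 arrays came from rats given dexamethasone, a synthetic glucocorticoid, at 1.5 mg/kg into muscle, without or with the same dose of AICAR. They entered the estimate of the spread and a comparison of AICAR in the 2 settings. The study asked how AMPK bears on the metabolic actions of glucocorticoids. Whether 2 arrays of a group stand for 2 animals is not given in the labels; p-values therefore measure the spread between samples, and that spread may be technical.

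AICAR is a nucleoside that cells take up through nucleoside transporters and phosphorylate to ZMP, a mimic of AMP. AMP and ZMP bind the gamma subunit of AMPK, the kinase that senses low cellular energy and, in liver, restrains the synthesis of fatty acids and cholesterol and favours fat oxidation. ZMP is also an intermediate of purine synthesis and acts on other AMP-sensitive enzymes, so its effects in liver are not those of AMPK alone. Hepatocytes also make most plasma proteins, including the acute phase proteins that rise in inflammation, and they share the tissue with Kupffer cells, stellate cells, endothelial cells and bile duct cells.

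AICAR changed 2159 of 14217 genes (15.2%), of which 885 (6.22%) rose and 1274 (8.96%) fell at an adjusted p under 0.05. Each gene was read from its brightest probe set, and differences are given on the log2 scale with limma's standard error after ± (2 arrays a group). Of the 31042 probe sets tested, 4011 (12.9%) passed, with 1692 on the higher side and 2319 on the lower, and 169 (0.544%) were called and changed at least 2-fold. The higher share of the called probe sets was 42.2%, and it was 56.1% when each array was centred on its brighter probe sets. Most changes were small: the median absolute change over all genes was 0.14, with a median standard error of 0.09. The median change over all genes was 0.00, and each gene list is read against it and against the shares of genes that rose and fell given above. Of the 98 genes called and changed at least 2-fold, 45 rose and 53 fell. In all 98 both AICAR arrays lay on the same side of both vehicle arrays, which their choice on these same arrays nearly fixed. The same limit applies to called genes described below by the gap between their arrays. Across probe sets, r was 0.997 within each of these groups, and 0.992 to 0.993 between a vehicle and an AICAR array.

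The arrays carried the marks of liver. Over 8 hepatocyte markers the mean level was 13.23 and 13.22 in the vehicle arrays and 13.10 in both AICAR arrays. Albumin (Alb) stood at 14.72 and 14.69 against 14.68 and 14.70. The array's RNA controls differed between the groups. For actin, the 3′ control probe set exceeded the 5′ one by 2.26 and 2.20 in vehicle and by 1.84 and 1.79 after AICAR, and for GAPDH the excess was 0.61 and 0.60 against 0.41 and 0.37. The part of RNA quality in the results was not tested. In whole tissue, fewer cells of a type and less RNA per cell cannot be told apart. Calls of small changes were sensitive to single arrays: of 325 called genes of the naming rule, 182 kept their call when each array was left out in turn, and 80 lost it whichever of the 4 arrays was left out. In such a fit the lone array of a group is assumed to vary like the other groups.

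**Figure D1:**
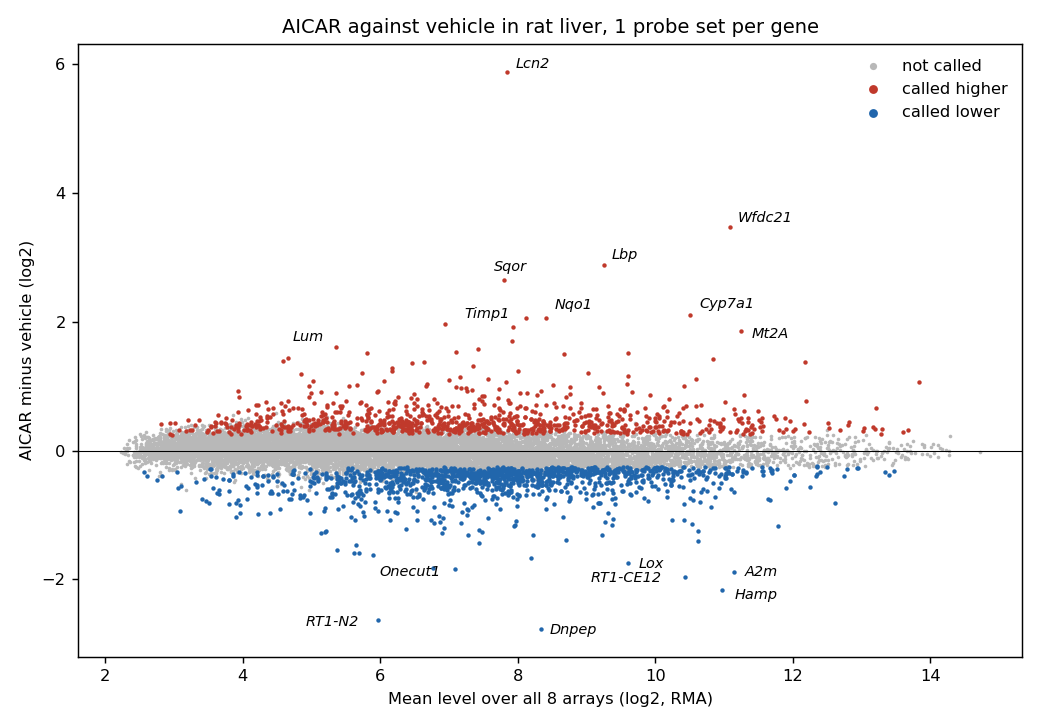
Change after AICAR (AICAR minus vehicle, log2, vertical axis) against the mean level over all 8 arrays (log2, horizontal axis), with 1 point for each of 14217 genes. Red points are the 885 genes called higher and blue points the 1274 called lower; Lcn2 stands alone at 5.88, and the largest fall is that of Dnpep at -2.77.

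The largest rise belonged to Lcn2, lipocalin 2, a secreted protein that binds bacterial siderophores. It read 5.05 and 5.02 in the vehicle arrays and 10.90 and 10.93 in the AICAR arrays. The groups were far apart and the arrays of each group almost equal. The rise of 5.88 ± 0.11 is 58.8-fold (adjusted p = 1.46e-07). Wfdc21, a small secreted protein with a whey acidic protein domain, went from 9.16 and 9.13 to 12.63 and 12.60, an 11.1-fold rise. Lbp, the plasma protein that hands bacterial lipopolysaccharide to CD14, went from 8.55 and 8.60 to 11.42 and 11.49, a rise of 2.88 ± 0.07. Next came Sqor, the mitochondrial enzyme that oxidises hydrogen sulfide, which read 5.79 and 6.28 in vehicle and 8.72 and 8.64 after AICAR (2.65 ± 0.15). Cyp7a1, which sets the rate of bile acid synthesis, rose 4.31-fold. Nqo1, a quinone reductase and classical NRF2 target, rose 4.18-fold, and Timp1, an inhibitor of matrix metalloproteinases, 4.15-fold.

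The rest of the 20 largest rises ran from 1.96 down to 1.39. They included secreted phospholipase A2 (Pla2g2a, 1.96 ± 0.09), the phospholipase Abhd3 (1.92 ± 0.13) and metallothionein Mt2A (1.86 ± 0.07). Abhd3 had a second probe set at 0.30, not called. Rnf213, a large ubiquitin ligase, rose by 1.71 ± 0.12, and its second probe set rose by 1.45. Isyna1, which makes inositol phosphate from glucose phosphate, rose by 1.58 ± 0.11, the ubiquitin-like Ubd by 1.51 ± 0.11 and the secreted proteoglycan Tsku by 1.49 ± 0.08. The macrophage glycoprotein Gpnmb, the inhibitory receptor Pilra and lymphotoxin beta (Ltb) rose by 1.53 ± 0.12, 1.52 ± 0.09 and 1.39 ± 0.19. Thrsp, a nuclear regulator of lipogenesis, rose by 1.42 ± 0.08, and its other probe sets by 1.35 and 1.52.

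The largest fall was that of Dnpep, aspartyl aminopeptidase, from 9.15 and 9.25 to 6.32 and 6.55, which is 6.81-fold lower (adjusted p = 2.01e-06). Hamp, the iron hormone hepcidin, fell from 11.53 and 11.71 to 9.46 and 9.45, a change of -2.17 ± 0.09. A2m, alpha-2-macroglobulin, fell from 9.56 and 9.43 to 7.49 and 7.72 (-1.89 ± 0.09). In none of these did an AICAR array reach a vehicle array. Onecut1 (HNF6), a transcription factor of hepatocyte identity, fell by 1.84 ± 0.09, with a second probe set at -0.66. Serpina7, the thyroxine-binding globulin of plasma, fell by 1.82 ± 0.13, and Lox, the enzyme that crosslinks collagen and elastin, differed by -1.74 ± 0.08. Tstd1, a thiosulfate sulfurtransferase, fell by 1.67 ± 0.07, and the potassium channel Kcnj15 by 1.62 ± 0.10. Falls of 1.59 to 1.31 followed in Cyp26b1, which degrades retinoic acid, Pggt1b, Elapor1, the kinase Nim1k, the peroxisomal protein Pxmp4, the protease inhibitor Mug1, Ephx2, the soluble epoxide hydrolase, Nat8, AKR1C3l1 and the adenosine receptor Adora2b. The other probe sets of Kcnj15 and Cyp26b1 stood at 0.08 and 0.15, not called, and the means over their probe sets were -0.77 and -0.72.

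Genes of AICAR's own pathway were called mostly on the lower side, and by small amounts. Of 22 genes for AMPK subunits, upstream kinases and direct substrates, 1 rose, 5 fell and 16 were not called (27.3% called, against 15.2% of all genes), with a median of -0.00, and without 1 array 1 rose and 1 to 2 fell. The catalytic subunit gene Prkaa2 read 9.36 and 9.35 in vehicle and 9.33 and 9.40 after AICAR, so its arrays overlapped (0.01 ± 0.07, adjusted p = 0.926). The other catalytic subunit gene, Prkaa1, was called lower by 0.33 ± 0.08, but the mean over its probe sets was 0.08. Prkab1, a beta subunit, was called lower by 0.32 ± 0.07. Both calls were lost when any 1 of the 4 arrays was left out, with adjusted p up to 0.160 and 0.123. Prkag2, the gamma subunit gene with nucleotide-binding sites, fell by 0.60 ± 0.08, but its 3 other probe sets were not called (-0.24, -0.12 and 0.11). The single member that rose was Acaca, acetyl-CoA carboxylase, whose protein AMPK phosphorylates: it went from 8.39 and 8.45 to 9.07 and 9.10 (0.67 ± 0.07), and its second probe set rose by 0.97. AMPK acts by phosphorylation, which these arrays do not measure.

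Purine enzymes and nucleoside transporters went both ways, with 4 of 31 higher and 6 lower (2 to 3 and 1 to 2 without 1 array). The equilibrative transporters Slc29a1 and Slc29a2, which carry adenosine and related nucleosides, rose by 0.56 ± 0.08 and 0.55 ± 0.08, but the other Slc29a2 probe set stood at -0.06, not called. Nt5e, the cell-surface enzyme that makes adenosine from AMP, was called lower by 0.42 ± 0.07. The adenosine receptor gene Adora2b fell from 7.90 and 7.98 to 6.62 and 6.65, while Adora1 was called higher by 0.46 ± 0.10. Without vehicle replicate 1 the calls of Nt5e and Adora1 were lost. So was the call of Nt5e without AICAR replicate 1, and that of Adora1 without AICAR replicate 2 (adjusted p up to 0.0669 for Nt5e and 0.127 for Adora1). The Adora1 call was also lost in the mean over its probe sets (0.34, adjusted p = 0.0581).

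Inflammation-like changes were strong in some acute phase genes and small, or not called, in others. Of 21 positive acute phase genes, 10 rose, 1 fell and 10 were not called, with a median of 0.23. Whichever single array was left out, 5 members rose: Lcn2, Lbp, Pla2g2a, Orm1 and Serpina3n. Orm1, alpha-1-acid glycoprotein, went from 12.91 and 12.95 to 13.98 and 14.02 (1.07 ± 0.07), from an already bright signal. Serpina3n, a secreted protease inhibitor, rose by 0.66 ± 0.07. The 3 fibrinogen chains, which an interleukin-6 response raises, were not called: Fga at 0.15 ± 0.08, Fgb at 0.11 ± 0.07 and Fgg at 0.11 ± 0.07 (adjusted p of 0.239 to 0.375). Haptoglobin (Hp) read 14.15 and 14.11 in vehicle and 14.37 and 14.36 after AICAR, a difference of 0.23 ± 0.07 that was not called (adjusted p = 0.0626). C-reactive protein (Crp) was called higher by 0.25 ± 0.07, a call lost when any 1 of the 4 arrays was left out (adjusted p up to 0.158). The member that fell was A2m, the major acute phase protein that rats raise in inflammation. Ceruloplasmin (Cp) had probe sets called in opposite directions, at 0.28, 0.58 and -0.49. The negative acute phase list held 9 genes, of which 2 were lower: Serpina7, and Apoa1 by 0.38 ± 0.07, the latter not without vehicle replicate 1 or AICAR replicate 1 (adjusted p up to 0.0671).

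The promoter of Lcn2 is shown because this gene had the largest rise. It is the 250 bases before the RefSeq transcription start in GRCr8, chr3:36081781-36082030, minus strand, printed 5′ to 3′, with overlapping matches to the NF-kB-like letters GGGANNNNCC (N is any base, both strands searched) in capitals.
Lcn2: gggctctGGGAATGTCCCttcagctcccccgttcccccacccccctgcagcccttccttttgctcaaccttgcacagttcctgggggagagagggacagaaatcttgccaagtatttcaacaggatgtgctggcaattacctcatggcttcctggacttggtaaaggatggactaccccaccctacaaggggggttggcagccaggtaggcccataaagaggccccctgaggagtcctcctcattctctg
The first match starts 243 bases before the start site. The letters are common: 5379 of 27457 rat promoters in the RefSeq table (19.6%) held them. So did 6 of the 17 listed acute phase genes with a promoter there, and 3 of the 8 that rose (Lcn2, Orm1 and Serpina3n). CEBP-like letters, TTGCNNAA (10.5% of promoters), stood in 8 of the 17 and 5 of the 8. STAT-like letters, TTCNNNGAA (8.68%), stood in 4 and 2. A match describes the sequence and does not show binding.

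Cytokine, chemokine, adhesion and NF-kB target genes went in both directions. Of 35 measured, 8 rose and 5 fell, with a median of 0.16, and without 1 array 4 to 6 were higher and 2 to 4 lower. Cxcl9, an interferon-gamma-induced chemokine that draws T cells, went from 6.92 and 6.95 to 8.09 and 7.99 (1.10 ± 0.09), and its second probe set rose by 1.17. Vcam1, an adhesion molecule of activated endothelium, rose by 0.53 ± 0.07 and the monocyte chemokine Ccl2 by 0.42 ± 0.07, from a low level of 4.43 and 4.40. Icam1 was called higher by 0.54 ± 0.09 and lost the call without vehicle replicate 1 (adjusted p = 0.0516). A pair of chemokines went the other way. Cxcl1, a neutrophil chemokine, fell from 6.40 and 6.54 to 5.28 and 5.50 (-1.08 ± 0.13), and Cxcl13, a B cell chemokine, from 7.59 and 7.52 to 6.33 and 6.39 (-1.19 ± 0.07). The feedback genes of the 2 main inflammatory pathways were close to vehicle. Socs3, induced by interleukin-6 through STAT3, differed by -0.02 ± 0.10, and Tnfaip3 (A20), induced by NF-kB, by -0.17 ± 0.10, neither of them called. Nfkbia, the NF-kB inhibitor, was called higher by 0.34 ± 0.08, a call lost when any 1 of the 4 arrays was left out (adjusted p up to 0.104). Of 19 genes of interleukin-6 and STAT signalling, 1 was higher and 1 lower, with a median of 0.01, and without 1 array none was higher. The lower member was Socs2, a growth hormone feedback gene, at -0.76 ± 0.07.

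**Figure D2:**
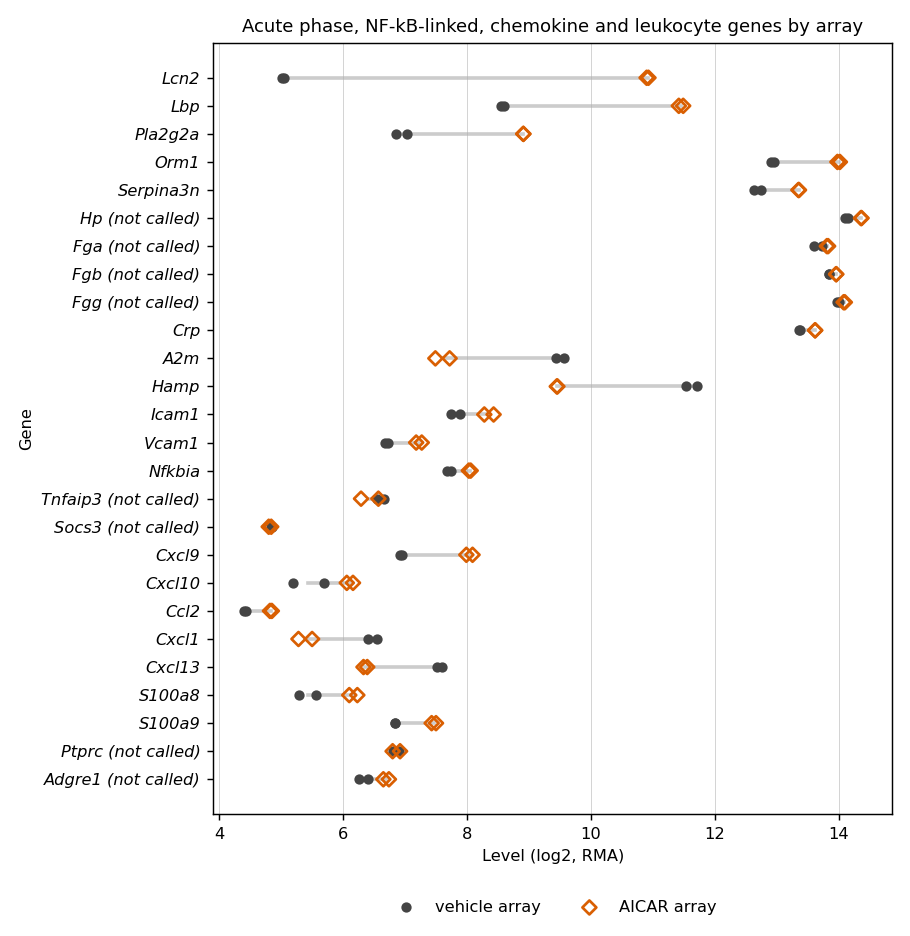
Level in each array (log2, horizontal axis) of 26 acute phase, NF-kB-linked, chemokine and leukocyte genes (vertical axis), with filled circles for the 2 vehicle arrays, open diamonds for the 2 AICAR arrays and a bar between the group means. Lcn2, Lbp and Pla2g2a lie far to the right of vehicle and A2m and Hamp far to the left, while Fga, Fgb, Fgg, Socs3 and Ptprc lie within 0.15 of it.

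Interferon-stimulated and complement genes rose by small amounts, and none of those measured was called lower at its brightest probe set. The complement gene Masp2, called higher there, rose by 0.38 at another probe set and fell by 1.07 at a further one, both called. Its mean over probe sets was -0.13 and not called. Of 22 interferon-stimulated genes 8 rose (median 0.20). The antiviral synthetase Oas1a rose from 7.19 and 7.22 to 7.93 and 7.87 (0.70 ± 0.07), and the immunoproteasome subunit Psmb8 by 0.45 ± 0.08. The guanylate-binding protein Gbp2 was called at 0.74 ± 0.14 and lost the call when any 1 of the 4 arrays was left out (adjusted p up to 0.0653), and 2 to 5 members were higher in such fits. Of 19 hepatocyte complement components 8 rose (median 0.24), led by C6, a pore-forming component, from 9.66 and 9.66 to 10.51 and 10.53, and by the protease C1r at 0.56 ± 0.07. Without 1 array 2 to 3 complement genes were higher. Of 17 coagulation genes 2 were higher and 1 lower (median 0.03; 1 and none without 1 array). Serpinf2, the plasmin inhibitor, rose by 0.50 ± 0.07.

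Antigen presentation had the largest share of higher members of any list drawn: 10 of 12 rose, none fell, and the median was 0.71. Class II molecules display peptides to helper T cells, and the invariant chain Cd74 guides their assembly. RT1-Db1, a class II beta chain, went from 7.80 and 7.63 to a mean of 9.02 in the 2 AICAR arrays (1.31 ± 0.08), and RT1-Da, its alpha chain partner, from 9.66 and 9.72 to 10.90 and 10.89 (1.21 ± 0.09). Cd74 went from 9.46 and 9.49 to 10.48 and 10.43 (0.99 ± 0.07). No AICAR array of these 3 genes overlapped a vehicle array. The peptide editors RT1-DMa and RT1-DMb rose by 0.92 ± 0.09 and 0.53 ± 0.07. Tapasin (Tapbp), which loads class I molecules, was called at 0.46 ± 0.08 and lost the call without vehicle replicate 1 or AICAR replicate 1 (adjusted p up to 0.0648). When each array was left out in turn, 7 to 9 members were higher.

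The promoters of RT1-Da and RT1-Db1 are shown because their list moved together and because class II promoters are known for a Y box, here searched as CTGATTGG on both strands and set in capitals. Each is the 250 bases before the RefSeq start in GRCr8: RT1-Da at chr20:4515165-4515414, plus strand, and RT1-Db1 at chr20:4560163-4560412, minus strand.
RT1-Da: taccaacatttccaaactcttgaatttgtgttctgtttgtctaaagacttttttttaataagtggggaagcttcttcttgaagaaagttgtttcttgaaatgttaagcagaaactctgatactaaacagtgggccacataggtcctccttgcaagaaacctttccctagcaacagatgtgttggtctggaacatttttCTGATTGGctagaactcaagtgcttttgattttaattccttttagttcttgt
RT1-Db1: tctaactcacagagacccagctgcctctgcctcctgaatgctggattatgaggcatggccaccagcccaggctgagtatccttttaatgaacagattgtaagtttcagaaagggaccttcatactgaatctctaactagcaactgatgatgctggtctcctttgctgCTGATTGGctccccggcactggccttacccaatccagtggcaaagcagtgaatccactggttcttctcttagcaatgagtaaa
The Y box starts 52 bases before the start site in RT1-Da and 83 bases before it in RT1-Db1. These letters stood in 975 of 27457 promoters (3.55%), and in 4 of the 8 antigen presentation genes that rose and have a promoter in the table, RT1-Da, RT1-Db1, RT1-Ba and RT1-Bb.

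Other probe sets of the RT1 complex, the rat major histocompatibility complex, did not move together. RT1-Bb, a class II beta chain, rose by 0.91 ± 0.13 at its brightest probe set and fell by 1.43 ± 0.08 at the other. RT1-Ba rose by 0.89 ± 0.10 and by 2.33 at 2 of its probe sets and differed by 0.01 and 0.02 at the other two. The class I genes RT1-N2 and RT1-CE12 were among the largest falls. RT1-N2 read 7.14 and 6.95 in vehicle and 4.47 and 4.36 after AICAR, but 3.84 and 3.51 after dexamethasone and 8.70 and 8.75 after both agents. RT1-CE12 read 11.24 and 11.55, then 9.41 and 9.46, and in the dexamethasone groups a mean of 9.11 against 11.74 and 11.81. The levels of each gene fell near a high or a low value by group, with the 2 arrays of a group alike. RT1 genes are highly polymorphic and Sprague-Dawley rats are outbred. Whether the groups differ in RT1 alleles was not tested, and for RT1 probe sets allele and treatment cannot be told apart here. Cd74, which rose with the class II genes, is encoded outside this complex, and the cause of its rise was not tested.

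Many structural matrix genes rose, while the main myofibroblast gene, Acta2, was not called. Of 40 structural matrix genes 19 rose and none fell, with a median of 0.30, and 10 to 14 rose when each array was left out in turn. Lumican (Lum), a small proteoglycan that organises collagen fibrils, went from 4.54 and 4.56 to 6.08 and 6.24 (1.61 ± 0.08). Col1a1, a chain of type I collagen, went from 6.02 and 6.10 to 7.35 and 7.50 (1.37 ± 0.08), and its second probe set rose by 0.74. In both genes the AICAR arrays lay well above the vehicle arrays. Decorin (Dcn), which binds TGF-beta and collagen, rose by 0.95 ± 0.08. Matrix Gla protein (Mgp), an inhibitor of calcification, rose by 0.74 ± 0.08, the proteoglycan Prelp by 0.62 ± 0.10 and the basement membrane collagen Col4a1 by 0.54 ± 0.07. Col1a2, the partner chain of Col1a1, rose by 0.53 ± 0.08, with a second probe set at 0.89. Col3a1, already at 11.37 and 11.38, was called at 0.33 ± 0.07, a call lost when any 1 of the 4 arrays was left out (adjusted p up to 0.109). Efemp1 was called at 0.83 ± 0.20 and lost the call without vehicle replicate 2 or either AICAR array (adjusted p up to 0.139).

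Genes that process and remodel matrix were more divided, with 8 of 33 higher and 3 lower (median 0.12), and 3 to 5 higher and 1 to 2 lower without 1 array. Timp1 went from 7.14 and 7.22 to 9.19 and 9.28. Plod2, which hydroxylates collagen lysines, rose by 1.08 ± 0.12, and Pcolce, which helps to trim procollagen, by 0.64 ± 0.09. Tgfb1, the fibrogenic cytokine, was called at 0.66 ± 0.12 from a low level of 4.67 and 4.69 and lost the call without vehicle replicate 1 or AICAR replicate 1 (adjusted p up to 0.0658). The crosslinking enzyme Lox went against the collagens, from 11.07 and 10.99 to 9.27 and 9.31, and its second probe set fell by 1.79. Ccn1, a matricellular YAP target, was called lower by 1.03 ± 0.20, a call lost without vehicle replicate 1 or AICAR replicate 2 (adjusted p up to 0.0743). In TGF-beta and BMP signalling 2 of 27 genes were higher and 6 lower, with a median of -0.15 (1 to 2 and 2 to 4 without 1 array). Inhbc, an activin subunit of hepatocytes, rose by 0.72 ± 0.07, while Bmp2, an endothelial signal for hepcidin, fell by 0.56 ± 0.07 and Skil, a SMAD repressor, by 0.52 ± 0.07. A second Bmp2 probe set stood at -0.18, not called.

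Markers of the cells that make matrix moved in part. Of 14 stellate cell markers 4 were higher and none lower, with a median of 0.09, and 1 to 3 were higher without 1 array. Their mean level was 6.25 and 6.24 in vehicle and 6.44 and 6.39 after AICAR, and 1 marker was dim. Acta2, smooth muscle actin and the hallmark of activated stellate cells, read 6.08 and 5.85 against 5.94 and 5.86, so its arrays overlapped (-0.07 ± 0.09, adjusted p = 0.684). The other called markers were desmin (Des, 0.54 ± 0.11), the smooth muscle gene Tagln (0.55 ± 0.11) and cytoglobin (Cygb, 0.51 ± 0.10). Des lost the call without vehicle replicate 2 or AICAR replicate 1, Tagln without vehicle replicate 1 or AICAR replicate 1, and Cygb when any 1 of the 4 arrays was left out (adjusted p up to 0.0944, 0.103 and 0.0665). Pdgfrb and Lrat, further defining markers, differed by -0.05 ± 0.10 and -0.26 ± 0.08 and were not called. Vimentin (Vim), an intermediate filament of mesenchymal cells, rose from 7.94 and 7.98 to 8.80 and 8.93 (0.90 ± 0.08). Of 13 portal fibroblast and mesothelial markers 3 were higher (1 to 2 without 1 array) and 1 lower, and their mean level was 5.67 and 5.66 against 5.78 and 5.80. Mfap4, a microfibril protein, rose by 1.18 ± 0.11 and Dpt, dermatopontin, fell by 1.13 ± 0.08. The part of these cells in the matrix result was not tested.

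**Figure D3:**
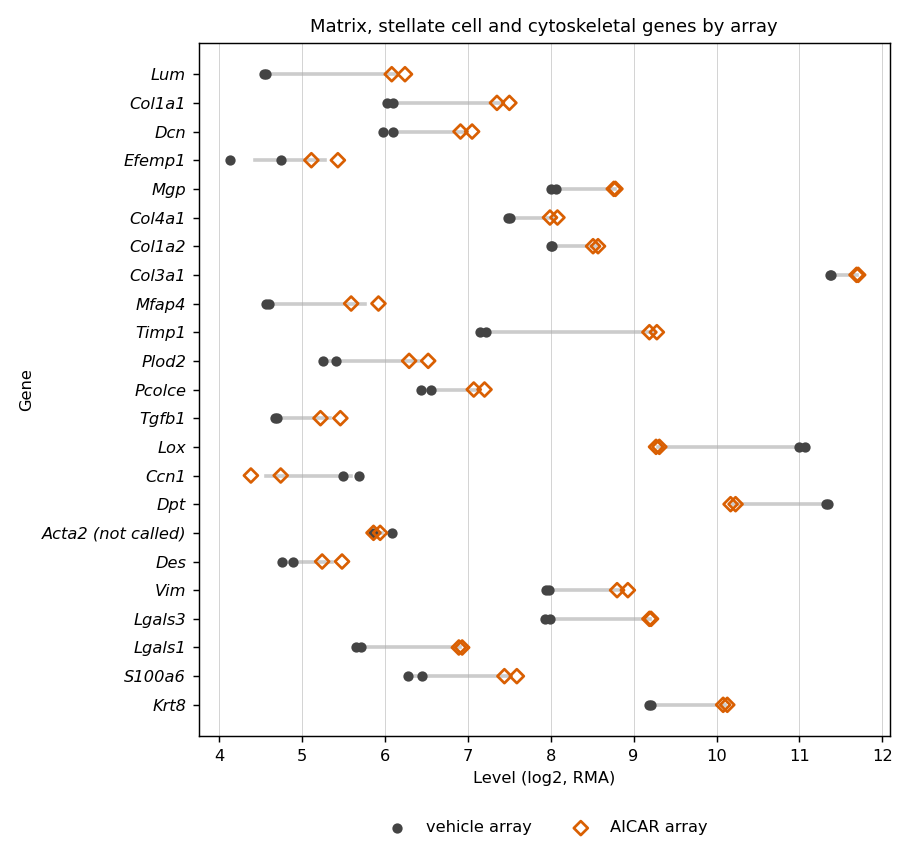
Level in each array (log2, horizontal axis) of 23 matrix, stellate cell and cytoskeletal genes (vertical axis), with filled circles for the 2 vehicle arrays, open diamonds for the 2 AICAR arrays and a bar between the group means. Lum, Col1a1 and Timp1 lie to the right of vehicle, Lox, Ccn1 and Dpt to the left, and the Acta2 arrays overlap.

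Cytoskeletal, keratin, annexin and galectin genes rose alongside the matrix genes. Of 35 measured 14 rose and none fell, with a median of 0.19, and 8 to 11 rose without 1 array. Galectin 3 (Lgals3), a sugar-binding protein of macrophages and stressed epithelium, went from 7.93 and 7.99 to 9.19 and 9.21, and galectin 1 (Lgals1) from 5.65 and 5.71 to 6.89 and 6.93. The calcium-binding S100a6 rose by 1.15 ± 0.10 and keratin 8 (Krt8), a hepatocyte filament that rises under stress, by 0.91 ± 0.08. Annexins Anxa1 and Anxa2, which bind membranes, rose by 0.81 ± 0.07 and 0.60 ± 0.08, with a second Anxa2 probe set at 0.17, not called. All of these genes rose in dexamethasone-treated liver too, by 0.60 to 1.68.

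Leukocyte markers gave no uniform picture. Of 13 Kupffer cell and macrophage markers 4 were called higher and 1 lower, with a median of 0.26, and their mean level was 8.67 and 8.65 in vehicle and 8.79 and 8.77 after AICAR. Without 1 array none was higher and at most 1 was lower. C1qb was called at 0.85 ± 0.22 and Clec4f, a lectin specific to Kupffer cells, at -0.49 ± 0.09. The first call was lost when any 1 array was left out, and the second without vehicle replicate 2 or either AICAR array (adjusted p up to 0.171 and 0.0678). Adgre1 (F4/80) differed by 0.36 ± 0.14 and Cd68 by 0.09 ± 0.10, neither called. Of 12 neutrophil and monocyte markers 4 were higher and none lower, 5 were dim, and the mean level was 4.60 and 4.61 against 4.85 and 4.75. The alarmin subunit S100a9 went from 6.84 and 6.84 to 7.43 and 7.50 (0.62 ± 0.09), and the G-CSF receptor Csf3r from 3.18 and 3.19 to 3.63 and 3.68, the latter dim on every array: it stayed under 3.84, the smallest of the arrays' lower quartiles. Without 1 array 2 to 3 of this list were higher. Itgam and Cxcr2, defining genes of the same cells, differed by -0.20 ± 0.13 and 0.06 ± 0.14 and were not called. Of 20 lymphocyte markers none was higher and 3 were lower (1 to 2 without 1 array), and Ptprc (CD45), shared by all leukocytes, differed by 0.01 ± 0.10. The members called lower were the B cell gene Ms4a1 (CD20), Cd8a and Klrd1. Ms4a1 fell from 5.92 and 5.91 to 4.76 and 5.14, while Cd79b, the other measured B cell gene of the list, was not called. Of 13 sinusoidal endothelial markers 2 were higher and 2 lower (1 and at most 1 without 1 array), of 8 bile duct markers 1 and 1, and of 11 erythroid and platelet markers none and 1. The part of leukocytes in the inflammation-like result was not tested.

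**Figure D4:**
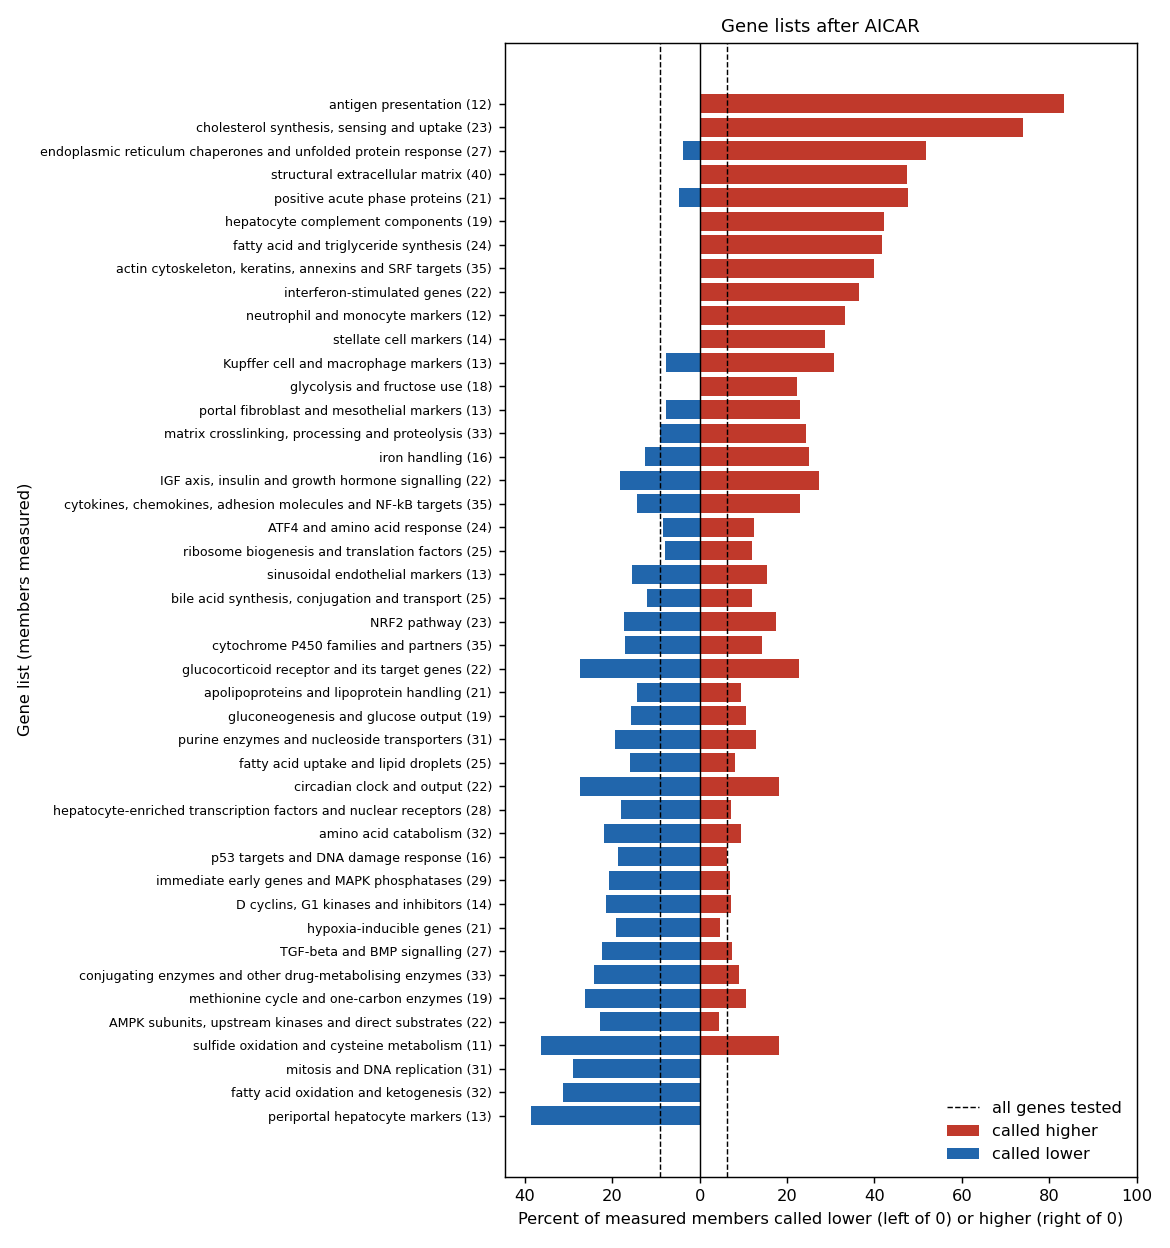
Percent of the measured members of each of 44 gene lists (vertical axis, with members measured in brackets) that were called higher (red, to the right of 0) or lower (blue, to the left), for lists with 4 or more called members. Dashed lines mark the shares over all genes, 6.22% higher and 8.96% lower; antigen presentation (10 of 12) and cholesterol synthesis (17 of 23) reach farthest to the right.

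Chaperones of the endoplasmic reticulum rose together. Of 27 genes of the chaperone and unfolded protein list 14 rose and 1 fell, with a median of 0.30, and 10 to 11 rose without 1 array. Hyou1, a large chaperone, went from 8.71 and 8.70 to 9.50 and 9.58 (0.84 ± 0.07), with its second probe set at 0.88. Sdf2l1 and Dnajb11, parts of the BiP chaperone complex, rose by 0.81 ± 0.08 and 0.68 ± 0.08. Sec61a1, the channel through which nascent proteins enter, rose by 0.69 ± 0.08, and Sel1l, a scaffold of the degradation machinery, by 0.66 ± 0.07. Other Sec61a1 probe sets stood at 0.75, called, and -0.07, not called. Calreticulin (Calr) went from 11.18 and 11.20 to 11.85 and 11.77 (0.62 ± 0.07). Of the death-linked branch, Ddit3 (CHOP) differed by -0.06 ± 0.14 and was not called. Trib3 differed by -0.09 ± 0.11 at its brightest probe set, not called, while its others stood at 0.48, called higher (adjusted p = 0.0181), and 0.34, not called. Xbp1, which drives many of these chaperones, was the member that fell, by 0.35 ± 0.07. Its call was lost when any 1 of the 4 arrays was left out, and it is named outside the naming rule, after its value was seen. Of 24 genes of the ATF4 response 3 were higher (at most 1 without 1 array) and 2 lower, of 17 heat shock genes 1 and 1, and of 30 proteasome genes none and 1.

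The promoters of Calr and Hsp90b1, another chaperone of the list, are shown because many promoters of this family hold an endoplasmic reticulum stress element, CCAAT followed by any 9 bases and CCACG, set in capitals on either strand. Each is the 250 bases before the RefSeq start in GRCr8: Calr at chr19:40213117-40213366, plus strand, and Hsp90b1 at chr7:23012294-23012543, minus strand.
Calr: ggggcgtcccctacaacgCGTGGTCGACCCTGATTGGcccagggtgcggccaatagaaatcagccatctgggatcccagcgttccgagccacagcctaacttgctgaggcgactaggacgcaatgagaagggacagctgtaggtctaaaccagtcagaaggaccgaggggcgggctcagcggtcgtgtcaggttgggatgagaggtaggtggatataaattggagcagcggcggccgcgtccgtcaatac
Hsp90b1: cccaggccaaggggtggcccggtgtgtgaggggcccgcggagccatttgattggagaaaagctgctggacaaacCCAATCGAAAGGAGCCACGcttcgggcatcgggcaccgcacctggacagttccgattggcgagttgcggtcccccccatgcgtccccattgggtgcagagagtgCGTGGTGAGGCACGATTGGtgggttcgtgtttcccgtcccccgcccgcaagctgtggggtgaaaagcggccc
Only 21 of 27457 promoters (0.0765%) held these letters, and 8 of them belonged to the 21 listed genes with a promoter in the table. Of the 10 that rose and have a promoter there, 4 held them. Hsp90b1 was called higher by 0.42 ± 0.07 but was not among the 8 largest changes of its list, and it is named for its promoter, after its value was seen.

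Cholesterol synthesis rose along most of its length. Of 23 genes of synthesis, sensing and uptake 17 rose and none fell, with a median of 0.47, and 12 to 14 rose without 1 array. Acat2, the first condensing step, went from 8.26 and 8.18 to 9.09 and 9.19 (0.92 ± 0.08). Fdps, which makes farnesyl diphosphate, went from 11.14 and 11.15 to 11.98 and 12.03 (0.86 ± 0.07), and Mvk, mevalonate kinase, rose by 0.78 ± 0.08. Other Mvk probe sets stood at 0.84, called, and 0.08, not called. Msmo1 and Sqle, enzymes of the sterol steps, rose by 0.76 ± 0.07 and 0.71 ± 0.07. Sc5d rose by 0.69 ± 0.10 and 0.59 at 2 probe sets and fell by 0.68 at the other. The sterol regulatory letters CACCCCAC, read on both strands, stood in 705 promoters (2.57%) and in none of the 14 higher members with a promoter in the table.

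Fat synthesis genes rose and fat oxidation genes fell. Of 24 genes of fatty acid and triglyceride synthesis 10 rose and none fell (median 0.22), and 6 to 8 rose without 1 array. Beside Thrsp and Acaca, the elongase Elovl6 rose by 0.74 ± 0.11, the acetate-activating Acss2 by 0.59 ± 0.07, the citrate carrier Slc25a1 by 0.55 ± 0.09 and ATP citrate lyase (Acly) by 0.48 ± 0.07. Srebf1, the regulator of this programme, read 10.29 and 10.16 against 10.18 and 10.16 and was not called there (-0.06 ± 0.08), but its second probe set was called higher by 0.34 (adjusted p = 0.0200). Of 32 genes of fatty acid oxidation and ketogenesis 10 fell and none rose (median -0.14), and 8 to 9 fell without 1 array. Ehhadh, a peroxisomal bifunctional enzyme, went from 10.66 and 10.69 to 9.52 and 9.62 (-1.11 ± 0.10). The mitochondrial isomerase Eci1 fell by 0.77 ± 0.09, the reductases Decr1 and Decr2 by 0.58 ± 0.07 and 0.55 ± 0.07, and Pdk4, the kinase that spares glucose in fasting, by 0.57 ± 0.08. Cpt1a, the gate of mitochondrial oxidation, differed by 0.10 ± 0.08 at its brightest probe set, which was not called, but its other probe set was called higher by 0.46 (adjusted p = 0.00378). Second probe sets of Pdk4, Eci1 and Elovl6 stood at -0.09, -0.27 and 0.34, none of them called. Fgf21, a fasting hormone of liver, fell by 0.60 ± 0.09. Lpl, lipoprotein lipase, which adult hepatocytes express little, rose from 6.63 and 6.52 to 7.58 and 7.71 (1.07 ± 0.08), while G0s2, an inhibitor of triglyceride lipase, fell by 0.64 ± 0.07 and Pparg by 0.67 ± 0.11.

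A few bile acid genes changed in each direction. Cyp7a1 went from 9.43 and 9.51 to 11.57 and 11.58 (2.11 ± 0.07), and Cyp8b1, which adds the hydroxyl group of cholic acid, from 9.88 and 9.95 to 11.02 and 11.03 (1.11 ± 0.08). Both belong to the classical pathway, and neither had an AICAR array near a vehicle array. Of the peroxisomal side-chain enzymes, Amacr fell by 1.16 ± 0.08 and Acox2 fell by 1.08 ± 0.07. Slco1a4, an uptake transporter, fell by 0.87 ± 0.07. Over the list 3 of 25 were higher and 3 lower, and 19 were not called. The receptors that hold Cyp7a1 in check, Nr1h4 (FXR) and Nr0b2 (SHP), differed by -0.21 ± 0.07 and -0.21 ± 0.09 and were not called (adjusted p of 0.0753 and 0.150).

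Carbohydrate lists had some called members, most by small amounts. Of 18 genes of glycolysis and fructose use 4 rose and none fell, among them glucose phosphate isomerase (Gpi) by 0.51 ± 0.08, and of 19 of gluconeogenesis and glucose output 2 were higher and 3 lower. Without 1 array 1 to 3 of the first list rose, and 1 to 2 of the second were higher and at most 2 lower. Pck1, the cytosolic gate of gluconeogenesis, read 12.98 and 12.95 against 13.11 and 13.12 and was not called (0.15 ± 0.07, adjusted p = 0.211). Its mitochondrial counterpart Pck2 rose by 0.70 ± 0.09. Of 13 glycogen genes 1 was higher and 2 lower, and without 1 array none and 1. Ugp2, which makes UDP-glucose for glycogen, fell by 0.75 ± 0.07. Igfbp1, a binding protein that insulin lowers, rose by 1.03 ± 0.07. Genes of the respiratory chain (1 of 22 higher, none without 1 array) and the citric acid cycle (1 of 14 higher, at most 1 without 1 array) had no member called lower.

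Amino acid and one-carbon enzymes fell more often than they rose. Of 32 genes of amino acid catabolism 7 fell and 3 rose (median -0.12; 4 to 5 and 1 to 2 without 1 array). Serine dehydratase (Sds), a periportal enzyme that fasting and glucagon raise, went from 7.34 and 7.41 to 6.10 and 6.15 (-1.26 ± 0.07). Urocanase (Uroc1) fell by 0.76 ± 0.07 and liver glutaminase (Gls2) by 0.72 ± 0.07, while Acmsd, which steers tryptophan away from NAD, rose by 0.74 ± 0.08. Of 19 methionine cycle and one-carbon genes 5 fell and 2 rose (3 to 4 and 1 without 1 array): Inmt, an indole methyltransferase, fell by 1.22 ± 0.13 and Bhmt, which remethylates homocysteine, by 0.81 ± 0.07. Of 13 periportal hepatocyte markers 5 fell and none rose, with a mean level of 11.42 in both vehicle arrays and 11.13 and 11.14 after AICAR. Of 14 pericentral markers 2 rose and 1 fell (8.85 and 8.83 against 8.96 and 8.98). Glul, the narrowest pericentral marker, differed by 0.13 ± 0.08 at its brightest probe set, not called, but its other probe sets were called higher by 0.95 and 0.50 (adjusted p = 2.45e-04 and 0.00321). Cps1 and Ass1, periportal urea cycle enzymes, differed by 0.05 ± 0.08 and -0.14 ± 0.07, neither called.

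Sulfide and thiol genes moved apart. Of 11 genes of sulfide oxidation and cysteine metabolism 2 were higher and 4 lower, and without 1 array 1 and 1. Sqor carries out the first oxidation step and rose 6.26-fold, whereas Ethe1, the persulfide dioxygenase that follows, fell from 9.41 and 9.41 to 8.57 and 8.62 (-0.81 ± 0.08). NRF2 pathway genes were likewise split, 4 of 23 higher and 4 lower (2 to 3 and 3 without 1 array). Nqo1 went from 7.29 and 7.26 to 9.34 and 9.34. The other members called higher were Akr7a3, Abcc3 and Osgin1. Without 1 array their rises were 0.49 to 0.56, 0.33 to 0.48 and 0.28 to 0.31. The autophagy receptor Sqstm1, which is not on that list, rose by 0.64 ± 0.07. Its other probe sets stood at 0.95, called, and 0.29 and -0.25, not called. Gclc, which limits glutathione synthesis, fell by 0.84 ± 0.08 with a second probe set at -0.51, and Nfe2l2, the NRF2 gene itself, by 0.74 ± 0.07. The gene of the aryl hydrocarbon receptor, Ahr, went from 5.15 and 5.13 to 6.37 and 6.31 (1.20 ± 0.07), with a second probe set at 0.22 that was not called. Cyp1a1 went from 4.67 and 4.88 to 5.65 and 5.75 (0.92 ± 0.12), and Cyp1a2 rose by 0.76 ± 0.07. Both P450 genes are known targets of that receptor; Cyp1b1, a further one, differed by -0.10 ± 0.08 and was not called.

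Of 35 cytochrome P450 genes and partners 5 rose and 6 fell (3 and 3 to 5 without 1 array). Cyp4a8 rose by 0.98 ± 0.07 and Cyp4a3 fell by 0.51 ± 0.08, and Cyp17a1, of steroid synthesis, fell by 1.22 ± 0.10. Of 33 conjugating and other drug-metabolising enzymes 3 rose and 8 fell (1 to 2 and 5 to 6 without 1 array). The sulfotransferases Sult1c2 and Sult2a6 fell by 1.28 ± 0.09 and 1.04 ± 0.12, the carboxylesterase Ces1d by 0.58 ± 0.08 and the flavin monooxygenase Fmo1 by 0.62 ± 0.07, while the glutathione transferase Gsta3 rose by 0.75 ± 0.12. Of 28 hepatocyte transcription factors and nuclear receptors 5 fell and 2 rose (4 and at most 1 without 1 array). Foxa3, a pioneer factor of liver genes, fell by 0.71 ± 0.10, Onecut2, a relative of Onecut1, by 0.42 ± 0.07 and Prox1 by 0.45 ± 0.07. The Prox1 call was lost in the mean over its probe sets (-0.31, adjusted p = 0.132), the other of which stood at -0.18.

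Growth and clock genes changed in both directions. Of 31 mitosis and DNA replication genes 9 fell and none rose (median -0.21), but 2 to 6 fell without 1 array. Cyclin A2 (Ccna2) went from 5.82 and 6.04 to 4.85 and 5.31 (-0.85 ± 0.14), and the mitotic motor Kif11 fell by 0.73 ± 0.11, with a second probe set at -0.12, not called. Cyclin D1 (Ccnd1), which opens the cell cycle, went from 8.91 and 8.92 to 7.84 and 7.81 (-1.09 ± 0.09), and its other probe sets fell by 1.07 and 0.78. The inhibitor Cdkn1a (p21) fell as well, by 0.54 ± 0.08, and Myc rose by 0.58 ± 0.09. A second Cdkn1a probe set stood at -0.36, not called. Of 29 immediate early genes and MAPK phosphatases 6 fell and 2 rose (3 to 4 and 2 without 1 array): Jun fell by 0.90 ± 0.09 at its brightest probe set and by 0.59 and 0.42 at the others, and Egr1 by 0.71 ± 0.11. Dusp6, an ERK phosphatase, fell by 0.75 ± 0.08 and 1.30 at 2 probe sets and rose by 0.30 at the other. Of 22 clock genes 4 rose and 6 fell (2 to 3 and 3 without 1 array). The repressors Nr1d1 and Nr1d2 rose by 1.43 ± 0.13 and 0.55 ± 0.08 and Cry1 and Npas2 fell by 0.64 ± 0.08 and 0.58 ± 0.09. Other Nr1d2 probe sets stood at 0.70, called, and 0.32, not called. Clock hour and feeding of the animals are not given in the labels, and their part was not tested.

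Genes of glucocorticoid action were changed without dexamethasone. The receptor gene Nr3c1 was called lower by 0.45 ± 0.09 and lost the call without vehicle replicate 1 or AICAR replicate 1. Its change was -0.50 to -0.40 when each array was left out in turn. Its second probe set stood at 0.06, and the mean over both, -0.20, was not called (adjusted p = 0.0974). Its standard targets Fkbp5 and Tsc22d3 (GILZ) differed by -0.23 ± 0.10 and 0.26 ± 0.10 and were not called. Of the 22 genes of the receptor and its targets 5 were higher and 6 lower (3 to 4 and 2 to 4 without 1 array). The kinase Sgk1 fell from 10.54 and 10.51 to 9.48 and 9.45 (-1.07 ± 0.07), and Mt2A rose from 9.42 and 9.39 to 11.27 and 11.26.

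In dexamethasone-treated liver AICAR changed 3606 genes (25.4%), and at 4858 of 31042 probe sets (15.6%) its effect differed from that without dexamethasone by the interaction test. The effect with dexamethasone was read from 4 arrays that entered the vehicle comparison through the shared estimate of the spread, while the interaction also uses the vehicle and AICAR arrays, on which the 98 genes below were chosen. Its count among them is therefore a description. Of the 98 genes changed at least 2-fold by AICAR alone, 47 were called in the same direction with dexamethasone, 21 in the opposite direction and 30 were not called. The interaction was called in 77. Of all 2159 genes called with AICAR alone, 600 were called in the same direction and 354 in the opposite one, with the interaction called in 1095. Lcn2 rose in both settings, by 5.88 alone and 3.64 with dexamethasone, a difference of -2.24 (adjusted p = 5.78e-05). Timp1 rose by 2.05 and 1.71, and Rnf213 by 1.71 and 1.93, with no called difference (adjusted p = 0.0678 and 0.415). Onecut1 fell by 1.84 and 1.71 and Cyp26b1 by 1.59 and 1.46, again without a called difference. Sqor rose more with dexamethasone, by 4.13 against 2.65 (interaction adjusted p = 0.00205).

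Several features of AICAR alone were missing or turned in dexamethasone-treated liver. Lbp rose by 2.88 alone and differed by 0.21 ± 0.07, not called, with dexamethasone. A2m, which stood at 13.73 and 13.69 after dexamethasone and 13.75 and 13.77 after both agents, had no called change there (interaction 1.93, adjusted p = 4.64e-05). Col1a1 rose by 1.37 alone and differed by -0.14 with dexamethasone (interaction -1.51, adjusted p = 1.00e-04), whereas Lum and Dcn rose in both settings. Of the 12 antigen presentation genes 10 rose with AICAR alone, and 8 fell and 1 rose with dexamethasone, with the interaction called in 10. Of the 13 Kupffer cell and macrophage markers 11 fell and 2 rose with AICAR in dexamethasone-treated liver (25.4% of all genes called in either direction). Their median was -2.72 there and 0.26 with AICAR alone, where 4 were higher and 1 lower. The part of these cells in the antigen presentation result was not tested. Most cholesterol synthesis genes rose in both settings, 17 of 23 each time (median 0.47 alone and 0.65 with dexamethasone). None was lower alone and 2 were lower with dexamethasone, and the interaction was called in 10. Endoplasmic reticulum chaperones also rose in both (14 and 16 of 27 higher, 1 lower each time), with the interaction called in 8. Acaca rose by 0.67 alone and fell by 1.64 with dexamethasone, and Thrsp rose by 1.42 and fell by 1.91, each with the interaction called. Ahr, Cyp1a1 and Cyp1a2, all higher after AICAR alone, fell by 0.47, 1.39 and 0.59 with dexamethasone, and their interactions were called too.

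**Figure D5:**
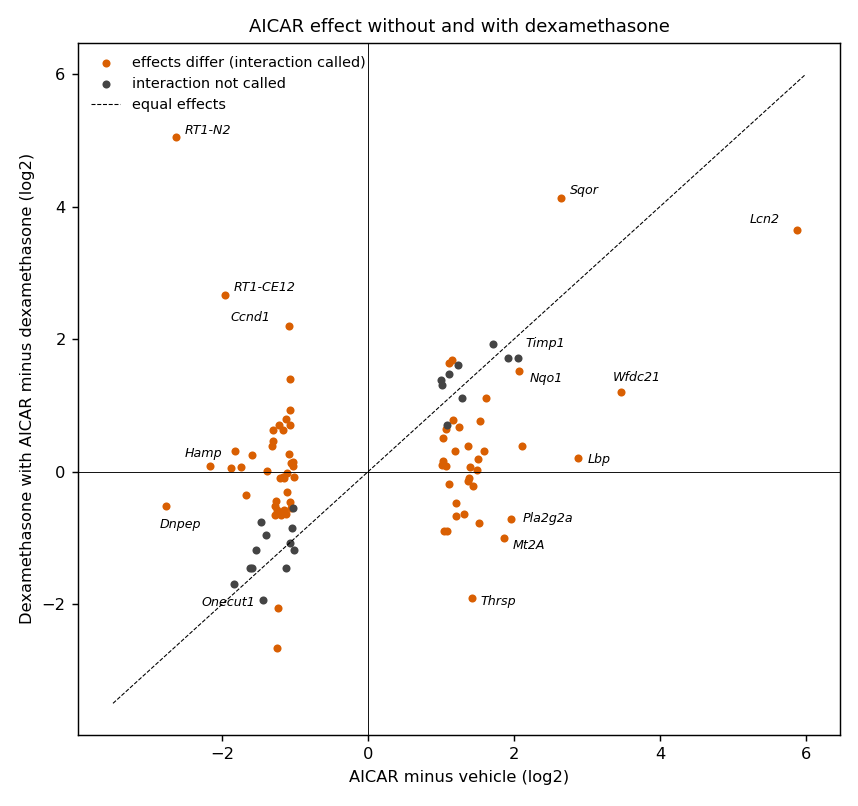
AICAR effect without dexamethasone (AICAR minus vehicle, log2, horizontal axis) and with it (dexamethasone with AICAR minus dexamethasone, log2, vertical axis) for the 98 genes called and changed at least 2-fold by AICAR alone. Orange points mark the 77 genes whose 2 effects differed by the interaction test and the dashed line marks equal effects; Lcn2, Sqor and Timp1 lie in the upper right, and RT1-N2, Ccnd1 and Thrsp have effects of opposite sign.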

How the data were processed

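Rat liver RNA was measured on Affymetrix expression arrays. The deposited log2 values, 1 per probe set and array, came from RMA in affy, run by the authors according to their processing notes (per the labels); versions, and the base of the logarithm in words, are not given in the sources used here, and the values have the range of log2 RMA. RMA compresses changes of dim probe sets and gives no detection call. Background correction could not be varied.

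Of 31099 probe sets, 57 controls were left out. Of the remaining 31042, 20826 carried 1 symbol in the platform annotation, 436 several and 9780 none, and 20758 of their gene IDs were found in the GRCr8 gene table. A gene (14217 in all) was read from its brightest probe set with 1 symbol. The test was limma 3.58.1 (R 4.3.3), fitted to all 8 arrays with a mean for each group, and Benjamini-Hochberg adjustment over all probe sets, and called at an adjusted p under 0.05. An exact permutation test of 2 arrays against 2 cannot go below 0.333 (two-sided) and was not used. The code was tested on simulated data.

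Genes were named as the 20 largest called rises and falls, up to 8 called members of each of 62 gene lists, a panel, and cell type markers. Of 1321 listed symbols 1183 matched a gene. The members, lists and tests were chosen with earlier results of these data known. Alternatives were the samples fitted, a replicate block, a filter on dim probe sets, cyclic loess, centring, another variance prior, stricter thresholds, probe set means and the removal of each array. The labels number the arrays of each group 1 and 2, and same-numbered arrays did not deviate together (r of -0.04 between vehicle and AICAR), so the numbers were not taken as pairs. Promoters are RefSeq sequences of GRCr8 from 250 bases before to 50 after each start; the printed part is the 250 before it.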

Additional observations from a re-analysis of the deposited data

Results flagged for a closer look

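Set apart here are 17 genes of the naming rule whose AICAR effect was called, at least 2-fold, and called in the opposite direction in dexamethasone-treated liver. The choice also required that limma's interaction test call the difference between the 2 effects. Opposite calls nearly fix that outcome, so it adds no further support. The differences, with dexamethasone minus without on the log2 scale, were as follows. RT1-N2 had the largest at 7.68, from -2.64 to 5.05, and RT1-CE12 had 4.63, from -1.96 to 2.66. The cell cycle gene Ccnd1 had 3.28 and the chemokine Cxcl1 2.48. The bile acid enzyme Acox2 had 2.00, the adenosine receptor Adora2b 1.93, the methyltransferase Inmt 1.92, AKR1C3l1 1.78 and the acetyltransferase Nat8 1.71. These 9 genes fell with AICAR alone and rose with dexamethasone. The lipogenic Thrsp had -3.33, metallothionein Mt2A -2.86, the phospholipase Pla2g2a -2.68 and the receptor Pilra -2.29. The class II genes RT1-Db1 and RT1-Da had -1.95 and -1.89, the insulin-lowered Igfbp1 -1.94 and the receptor gene Ahr -1.68. These 8 genes rose with AICAR alone and fell with dexamethasone. Groups of 2 arrays are too small to single out a sample that stands apart.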

How the results depend on the processing

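The number of probe sets called (4011) was 2345 when only the 4 arrays compared were fitted, 6048 with a trended and robust prior, 1385 at an adjusted p under 0.01, 169 with a 2-fold minimum and 1447 to 1989 when each array was left out in turn. For genes (2159) these settings gave 1231, 3549, 744, 98 and 755 to 1030. Fewer arrays leave fewer residual degrees of freedom, and the cause of the other shifts was not tested. The higher share of the called probe sets (42.2%) was 47.8% after cyclic loess, 56.1% after centring on brighter probe sets, 39.8% with the trended prior, 47.9% with the 2-fold minimum and 40.4% to 45.4% without 1 array. Centring moved the median of all genes by 0.04. AICAR in dexamethasone-treated liver called 6233 probe sets, and 3528 at 0.01, 548 with the 2-fold minimum and 3698 to 4933 without 1 array. The interaction called 4858, and 2178, 767 and 2910 to 3991. The replicate number as a block gave 3539 probe sets and 1868 genes, with 6041 in dexamethasone-treated liver and 4484 for the interaction. Among named genes called in the main or the alternative fit, directions turned only under the mean over the probe sets of a gene. These were Masp2 (-0.13), Prkaa1 (0.08), RT1-Bb (-0.26) and Srxn1 (0.01). Named genes called in neither fit also changed sign, 7 under this mean, 5 after cyclic loess, 6 after centring and some without 1 array. With the 2 stricter thresholds (0.01 and 2-fold) left aside, 179 of 325 called genes of the naming rule kept their call in every alternative fit. The other 146 lost it in at least 1. At an unadjusted p under 0.05, 8684 probe sets passed. The number of arrays, 2 a group, limits the precision of every value.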

Other observations

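Iron genes formed a further group. Of 16 measured, 4 rose and 2 fell, and 2 and 1 did so whichever array was left out. The hepcidin gene Hamp fell 4.49-fold while Tfr2, a sensor of iron-laden transferrin that acts upstream of hepcidin, rose from 10.10 and 10.04 to 10.70 and 10.67 (0.61 ± 0.07). Slc40a1, the iron exporter that hepcidin degrades, was called lower by 0.25 ± 0.07, a call lost when any 1 of the 4 arrays was left out (adjusted p up to 0.182) and in the mean over its probe sets (-0.11, adjusted p = 0.259). Bmp2, a signal for hepcidin, fell at its brightest probe set, and its second stood at -0.18, not called. The part of Bmp2 in the fall of Hamp was not tested. Lcn2, which carries iron-bound siderophores, is on the iron list too.

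Some remaining groups had a few called members. The shares called in the autophagy, apoptosis, heat shock and ribosomal protein lists were 10.5%, 9.09%, 11.8% and 14.3%, under the 15.2% of all genes. In the IGF, insulin and growth hormone list 6 of 22 rose and 4 fell, but 1 to 3 and 1 without 1 array. Of 19 autophagy and lysosome genes 2 rose, the protease Ctsd by 0.69 ± 0.07 and Sqstm1. Of 22 apoptosis genes 1 was higher, the survival gene Bcl2a1 by 0.57 ± 0.07, and 1 was lower, Bbc3. Among 17 heat shock genes Hspb1 rose by 0.95 ± 0.08 and Hsph1 fell by 0.65 ± 0.08. Of 14 ribosomal protein genes 2 were higher, and Rplp0 rose by 0.46 ± 0.07. Of 21 hypoxia-inducible genes 1 was higher and 4 were lower, and without 1 array none and 1 to 2.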
